A study of Caenorhabditis elegans with 2 samples.

Results

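The genes described are bcat-1, cdo-1, acly-1, fat-6 and pck-2, 5 of the 19973 protein-coding genes in the annotation. They act in amino acid breakdown, lipid synthesis and gluconeogenesis, and they were chosen by the signal values of the ELT-3 regions at or near them, so a high rank at these genes is how they were picked and not a result. The regions came from chromatin immunoprecipitation with sequencing (ChIP-seq) in whole Caenorhabditis elegans larvae of the second larval stage (L2), in 2 biological replicates of 1 group. Both replicates were of strain OP75, which carries unc-119(ed3) together with wgIs75, a stable transgene for the GATA transcription factor ELT-3 with GFP-FLAG at its C terminus. The antibody is listed as elt-3. The labels give the sex as pooled male and female and the age as unknown, and they name neither the promoter of the transgene nor how the replicate cultures were kept apart, so the spread between replicates may be technical. Input and mock libraries were not analysed here. In whole animals, strong binding in few cells and weak binding in many cannot be told apart.

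The authors' files are lists of regions called against a control. Each replicate and the pool of both has a list of 30000 regions, described as peaks together with background. A region has a width, a summit and a signal value, which is the peak caller's own score and not a read count. Here rank 1 is the highest signal value of a list, and "high" means among its 1000 highest. A region was placed at a gene when its summit lay in the gene body or up to 5000 bp upstream, and 2 summits within 150 bp were called shared. The pooled list was made from the reads of both replicates, so it does not stand apart from either. All signal values, ranks and q-values are those of the authors' lists, and no test was made on them at these genes. Replicate 1's list had 0 regions with an authors' q-value under 0.05, and replicate 2's had 15, as did the pooled list.

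ELT-3 acts in the hypodermis, the outer epithelium of the worm, which secretes its cuticle. GATA factors take their name from the short DNA word that their zinc fingers recognise, and sites of that kind recur in worm hypodermal and intestinal regulatory DNA. The 5 genes encode enzymes at entry or branch points of metabolism. BCAT-1 takes the amino group from leucine, isoleucine and valine, and CDO-1 is the cysteine dioxygenase that opens the oxidative breakdown of cysteine. ACLY-1 is an ATP citrate lyase, which makes cytosolic acetyl-CoA for lipid synthesis. FAT-6 is a stearoyl-CoA desaturase, which makes oleic acid, and PCK-2 is a phosphoenolpyruvate carboxykinase, the enzyme that commits oxaloacetate to glucose synthesis.

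The DNA under the high pooled summits at 4 of the genes is shown with its GATA sites, which were not used in choosing the genes. The pck-2 summits also had sites, but their sequence is not printed. Sequences are from the RefSeq WBcel235 genome, which has ce11 coordinates, on the forward strand and 5′ to 3′. Capitals mark GATA sites of the wider form, which are AGATAA or AGATAG or TGATAA or TGATAG on either strand, so that TTATCA is TGATAA read from the other strand. For bcat-1, acly-1 and fat-6 the 201 bases centred on the summit are given, at chrX:12872424-12872624, chrX:1477943-1478143 and chrIV:11914876-11915076. The cdo-1 summit lies in an annotated 3′ UTR of another gene, lgl-1, so 2 stretches of 30 bases around the sites are given, at chrX:864498-864527 and chrX:864586-864615.
bcat-1: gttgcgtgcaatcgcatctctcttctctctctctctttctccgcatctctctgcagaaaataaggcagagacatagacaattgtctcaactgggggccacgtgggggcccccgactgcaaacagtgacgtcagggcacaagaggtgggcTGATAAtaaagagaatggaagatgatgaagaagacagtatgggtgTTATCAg
cdo-1, first stretch: aggtgattagtgTTATCAcaagttaccgtt
cdo-1, second stretch: actaatatcTTATCTTATCAgacaaaacct
acly-1: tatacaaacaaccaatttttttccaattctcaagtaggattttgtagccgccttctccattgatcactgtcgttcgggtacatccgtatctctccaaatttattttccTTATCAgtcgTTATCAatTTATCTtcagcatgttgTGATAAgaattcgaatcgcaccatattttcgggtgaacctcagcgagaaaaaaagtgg
fat-6: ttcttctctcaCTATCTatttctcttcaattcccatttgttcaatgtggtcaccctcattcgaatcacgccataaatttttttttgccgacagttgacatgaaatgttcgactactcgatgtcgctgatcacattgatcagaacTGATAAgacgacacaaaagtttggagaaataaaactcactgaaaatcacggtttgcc

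TGATAA lay within 100 bp of the highest pooled summit at 4 of the 5 genes, the exception being pck-2, against 16.4% of all pooled regions and 19.6% of the 1000 highest. The wider form was found at all 5, against 34.1% of all pooled regions and 37.4% of the 1000 highest. Taken at each list's own highest summits, the TGATAA count was 4 of 5 in replicate 2's list and 1 of 5 in replicate 1's. Replicate 1's highest regions at bcat-1, acly-1 and fat-6 were other ones than the pool's. At acly-1 and fat-6 replicate 1 also had the pooled summit, 15 and 2 bp away, at ranks 9781 and 827. At bcat-1 it had no summit there. At acly-1 the 4 wider-form sites, of which 3 were TGATAA, all lay on 1 side of the summit, with centres 10.5 to 45.5 bp from it. At cdo-1 a TGATAA and an AGATAA overlapped on 1 side of the summit, with centres 51.5 and 46.5 bp away, and another TGATAA lay 38.5 bp away on the other side. The bcat-1 summit had 2 TGATAA sites, both on the side towards the gene, with centres 51.5 and 96.5 bp away. At fat-6 there was 1 TGATAA, 46.5 bp from the summit, and 1 AGATAG. The nearest TGATAA to the highest pck-2 summit had its far end 559 bp away, while the second pck-2 summit had 2 copies, with centres 55.5 and 62.5 bp away. A match to these letters is a description of the sequence and not a measured binding site. With 5 genes, chosen for their regions, no test of these shares was made.

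**Figure D1:**
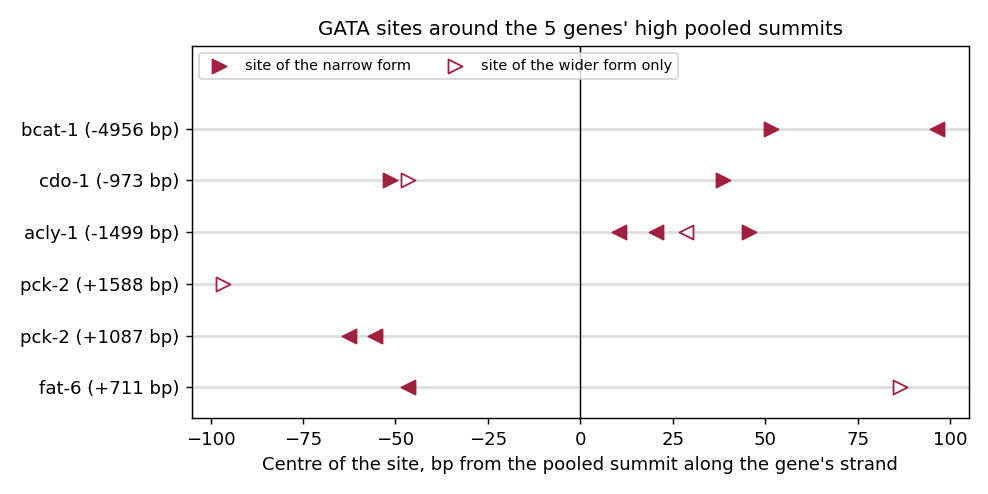
Positions of GATA sites around the 6 high pooled summits at the 5 genes, in bp from the summit along the gene's strand. Filled arrowheads are TGATAA (the narrow form) and open ones the other words of the wider form, pointing right where the site is on the gene's strand, and row labels give the summit's distance from the gene's start. The 4 sites at acly-1 lie between 10.5 and 45.5 bp from the summit, and the highest pck-2 summit (+1588 bp) has 1 open arrowhead, 96.5 bp away.

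GATA sites are rich in A and T, so base composition was compared. The 201 bases at the highest summit had a GC content of 36.3% at cdo-1, 37.8% at acly-1, 38.3% at fat-6, 47.3% at pck-2 and 49.8% at bcat-1, where the median of all pooled regions was 38.8%. The bcat-1 region, with 2 TGATAA sites, had more GC than 92.8% of pooled regions, and the cdo-1 region, also with 2, had more than 32.9% of them. The median of the 1000 highest pooled regions was 42.3%. Sites were found at summits with GC content above and below both medians. Whether base composition bears on the sites was not tested.

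At the gene level, 5 of the 5 genes had a high pooled region by the way they were picked, where 7.46% of all protein-coding genes had one. High regions of replicate 2's own list were found at 5 of 5 genes, against 7.28% of protein-coding genes. High regions of replicate 1's own list were found at 2 of 5, fat-6 and pck-2, against 7.62%. The same fat-6 and pck-2 genes had a high pooled region that was shared with a high region of both replicates, against 0.481% of protein-coding genes. That share is 96 genes, where 1490 had a high pooled region at all. The pool holds the reads of both replicates, and the genes were picked by their regions. The replicate and shared counts therefore do not stand apart from the pick and are a description only. The 5 genes held 6 high pooled regions, 2 of them at pck-2. All 6 had a shared summit somewhere in replicate 2's list and 5 in replicate 1's, where the shares for the 1000 highest pooled regions were 92.4% and 94%. The missing one was that of bcat-1.

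**Figure D2:**
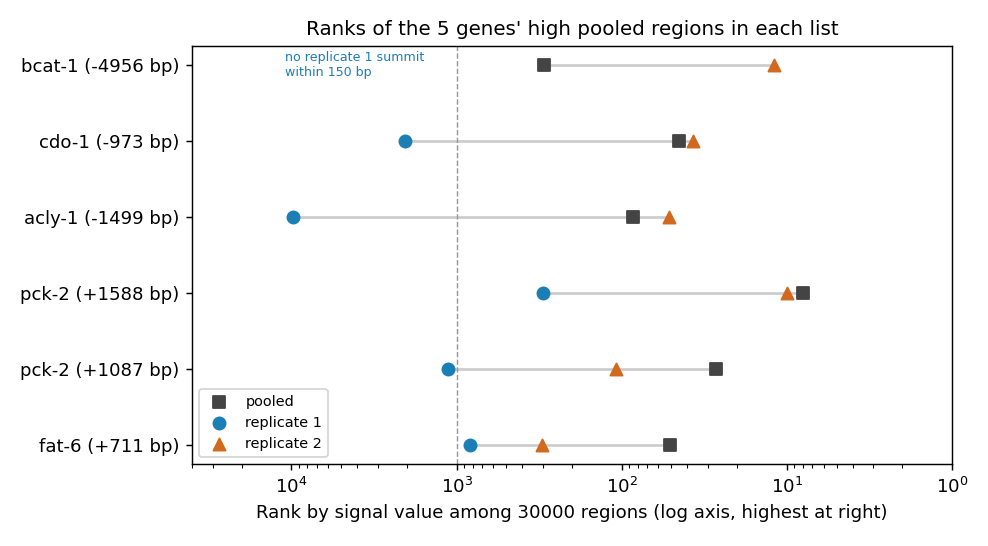
Ranks of the 6 high pooled regions in the pooled list (squares), in replicate 1's list (circles) and in replicate 2's list (triangles), on a log axis with the highest rank at the right and the dashed line at rank 1000. Replicate ranks are those of the nearest summit within 150 bp. Replicate 1's circles lie left of replicate 2's triangles in all 5 rows that have both, and the bcat-1 region has no circle. How often this held over all high pooled regions was not counted.

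At bcat-1 (WBGene00001149, chrX:12877480-12880328, ce11, forward strand), the high pooled region was at chrX:12872349-12872698, with its summit 4956 bp upstream of the gene's start and inside no annotated gene. Of the 6 high regions it lay closest to the edge of the 5000 bp window. The nearest protein-coding start on the other side, that of T14G8.4, was 8628 bp away. The region had a signal value of 33.3 and rank 295 in the pooled list. In replicate 1 no summit was shared, and the nearest one lay 1815 bp away with a signal value of 10.3 and rank 13270. In replicate 2 the shared summit was 10 bp away, with a signal value of 32.8 and rank 12. Its authors' q-value was 0.0345 in replicate 2, the lowest that list gives, against 0.613 in the pool. So the region was among the highest of 1 replicate and not in the list of the other.

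The start of bcat-1 itself had lower regions. Replicate 2 had a high region in the first part of the coding sequence, 47 bp from the start, with a signal value of 18.1 and rank 715. Replicate 1's highest region at the gene was 195 bp upstream of the start, with a signal value of 12.1 and rank 7302. Those summits were 242 bp apart and not shared. In the pool the 3 regions closest to the start ranked 8466, 10244 and 13417. Of the 5 pooled regions at bcat-1, 1 was shared with replicate 1, 4 with replicate 2 and 0 with both.

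At cdo-1 (WBGene00018986, chrX:862267-863578, reverse strand), the high pooled region was at chrX:864376-864725, with its summit 973 bp upstream of the start. That place is inside lgl-1, in its 3′ UTR. The gene lgl-1, related to a fly regulator of epithelial polarity, lies on the same strand, with its own start 6538 bp from the summit, so the nearest start was that of cdo-1. The region had a signal value of 42.4 and rank 45 in the pool. It was shared by replicate 1, 4 bp away with a signal value of 15.6 and rank 2050, and by replicate 2, 34 bp away with a signal value of 26.5 and rank 37. It was the highest region at cdo-1 in all 3 lists. The next pooled region, 2045 bp upstream, ranked 7068. Replicate 1 had regions at ranks 3387 and 4276 further upstream, while replicate 2's only other region there ranked 19669.

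At acly-1 (WBGene00016995, chrX:1479542-1484087, forward strand), the high pooled region was at chrX:1477868-1478217, with its summit 1499 bp upstream of the start and inside no gene. The nearest start on the other side was that of D1005.5, 5063 bp away. Its signal value was 38.7 and its rank 85 in the pool. Replicate 1 shared the summit, 15 bp away, but with a signal value of 11.2 and rank 9781, and 2 other regions at the gene ranked above it there, at 6511 and 6573. Replicate 2 shared it 22 bp away, with a signal value of 25.7 and rank 52. The 2 replicates thus both had a summit at this place and differed in its rank. Replicate 1's signal value there was near its list's median of 9.85. The authors' q-value was 0.337 in the pool, 0.764 in replicate 1 and 0.068 in replicate 2. The pooled list had 8 regions at acly-1, of which 6 lay in coding exons, with ranks from 6540 to 29155. Of all 8, 3 were shared with both replicates.

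At fat-6 (WBGene00001398, chrIV:11913692-11915687, reverse strand), the high pooled region was inside the gene, at chrIV:11914801-11915150. Its summit was 711 bp downstream of the gene's outer start, in an intron of 298 bp that is the second of transcript VZK822L.1a.1, and 191 bp from the nearest annotated start of a shorter fat-6 transcript. Its signal value was 41.7 and its rank 51 in the pool. Replicate 1 had a signal value of 17.9 and rank 827 at a summit 2 bp away. Replicate 2 had a signal value of 20.3 and rank 305 at a summit 6 bp away. Both replicates therefore held it among their 1000 highest. Its authors' q-value was 0.188 in the pool, 0.418 in replicate 1 and 0.163 in replicate 2.

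A second fat-6 region differed between the replicates in the other direction. It lay 1954 bp upstream of the start, at rank 3457 in the pool. It was the highest fat-6 region of replicate 1, with a signal value of 19.1 and rank 519, and replicate 2's nearest summit was 1733 bp away. Another, 4870 bp upstream, was shared by both replicates, at ranks 2705 and 4410 and pooled rank 1688. It was in the 1000 highest of none of the 3 lists.

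At pck-2 (WBGene00011232, chrI:7866136-7872100, forward strand), 2 high pooled regions lay in the same intron, of 3378 bp, in 3 of the gene's 5 transcripts. The higher, at chrI:7867549-7867898, had its summit 1588 bp downstream of the gene's outer start. It had a signal value of 56.3 and rank 8 in the pool, with an authors' q-value of 0.0345. Its summit also lay in a coding exon of R11A5.6, a gene of 342 bp nested in that intron on the other strand. The start of R11A5.6, 194 bp away, was nearer than any pck-2 start, of which the closest was 1168 bp away. Replicate 1 had a signal value of 20.6 and rank 298 at this region, and replicate 2 had 35.0 and rank 10. Thus it was the highest region of the gene in both replicates.

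The lower pck-2 region, at chrI:7867048-7867397, had its summit 1087 bp from the outer start and 667 bp from the nearest annotated start of a pck-2 transcript. Its signal value was 46.8 and its rank 27 in the pool. The shared summits were 3 bp away in replicate 1, with a signal value of 17.1 and rank 1135, and 7 bp away in replicate 2, with a signal value of 23.4 and rank 109. Both regions were in the authors' list of 33 that passed their irreproducible discovery rate (IDR) threshold. Of the 5 genes, picked for their high regions, only pck-2 had a region in that list, against 0.19% of protein-coding genes. That list ends at a signal value of 45.4, above the 42.4 of cdo-1. A further high region of replicate 2 lay near the 3′ end of the gene, 5683 bp from the outer start, with a signal value of 22.7 and rank 134. The pooled summit it shared had rank 2558.

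**Figure D3:**
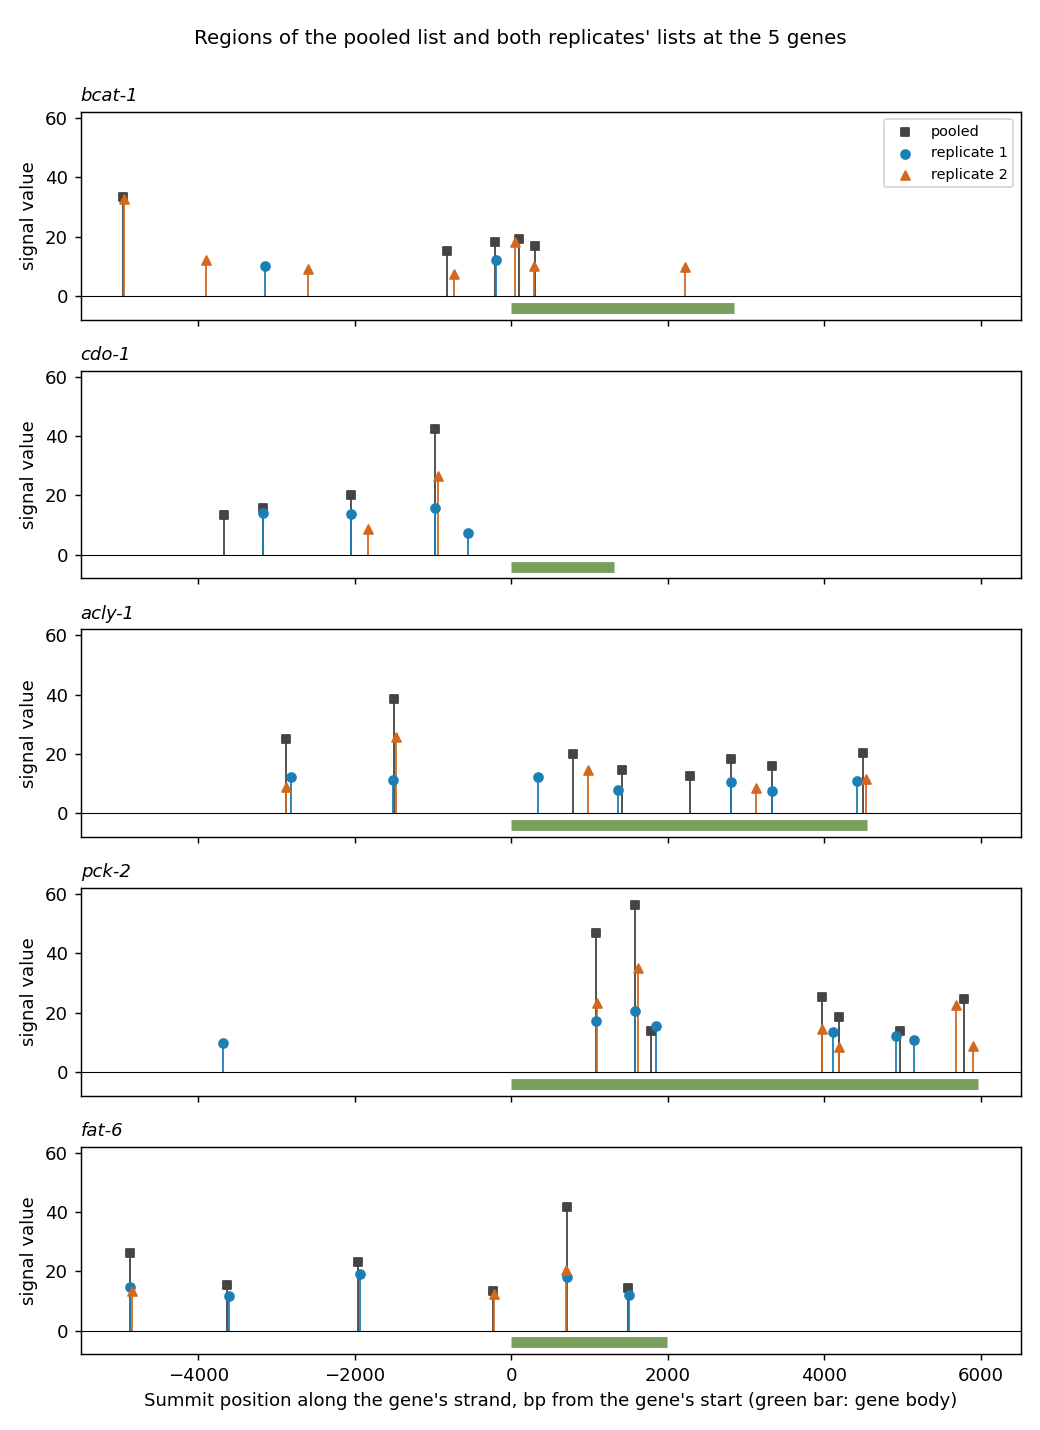
Every region of the pooled list (squares), replicate 1's list (circles) and replicate 2's list (triangles) at the 5 genes, by summit position in bp from the gene's outer start along its strand and by the authors' signal value. Green bars are gene bodies. Signal values rank regions within 1 list, and heights are not compared between lists. The tallest squares stand upstream of bcat-1, cdo-1 and acly-1 and inside pck-2 and fat-6.

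The 5 genes differed in where the highest region lay. It was upstream of the gene's outer start at bcat-1, cdo-1 and acly-1, at 973 to 4956 bp, and in an intron at pck-2 and fat-6. Both intron summits also lay upstream of the start of a shorter transcript of the same gene, 305 bp from it at fat-6. The 3 genes with their highest region outside the gene body are on chromosome X. That chromosome holds 13.7% of protein-coding genes and 16.9% of the 1000 highest pooled regions. The same 3 genes had no high region in replicate 1's list. With 5 genes, position, chromosome and replicate cannot be told apart here. Replicate 1's 1000 highest regions were on X in 17.2% of cases and replicate 2's in 19.4%.

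Pooled regions were also denser at these genes. The genes were picked by regions in these same windows, and a gene without a region could not have been picked, so the density is a description only. Their windows of 6312 to 10965 bp held 4 to 8 pooled regions each, or 0.634 to 0.858 per kb, against 0.299 per kb of the nuclear genome. The median window of a protein-coding gene was 7027 bp long and held 2. In all, the 5 windows held 30 pooled regions, of which 10 were shared with both replicates. Those 10 include 5 of the 6 high regions for which the genes were picked, so this count is a description too. Sharing with both replicates was found for 24% of all pooled regions.

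The 4 lists of other genes of the same pathways put these genes in their setting, with 95 genes besides the 5. High pooled regions were found at 8 of the 95 (8.42%), close to the 7.46% of all protein-coding genes. The median best pooled rank of those with a region was 4633, against 7822 over all protein-coding genes. Of the 95, mpst-4, ahcy-1 and hach-1, at pooled ranks 20, 146 and 186, ranked above bcat-1 at 295. High pooled regions shared with the high regions of both replicates were found at 0 of the 95, against 0.481% of protein-coding genes. In replicate 1's list 4 of the 95 had a high region (4.21%), and in replicate 2's 17 (17.9%), where 7.62% and 7.28% of protein-coding genes did. Among the 2000 highest pooled regions the count was 24 of 95 (25.3%), against 14.2% of protein-coding genes. Neighbouring list genes can share 1 region, as at pooled rank 1136 and at replicate 2 rank 248, and each gene was then counted. The shares of all protein-coding genes were counted in the same way.

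For branched-chain amino acid breakdown, 1 of 19 other genes had a high pooled region. It was hach-1, which encodes a hydrolase of the valine and propionate pathway, with a coding exon region at pooled rank 186. Replicate 2 shared it at rank 651, and the nearest summit of replicate 1, at rank 299, was 156 bp away and so just over the limit for sharing.

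For cysteine and methionine metabolism, 5 of 30 other genes had one. The gene ahcy-1, for S-adenosylhomocysteine hydrolase, had a coding exon region at pooled rank 146, with rank 1289 in replicate 1 and rank 189 in replicate 2. The gene cbs-1, for cystathionine beta-synthase, had one at pooled rank 329, with ranks 2551 and 850. At rhy-1, which in worms regulates the hypoxia pathway that in turn acts on cdo-1, a region in an exon had pooled rank 357, with ranks 2469 and 848. At mtrr-1, for methionine synthase reductase, a region 1053 bp upstream had pooled rank 789, with ranks 12329 and 273. The fifth was mpst-4, of the mercaptopyruvate sulfurtransferase family, with an upstream region at pooled rank 20 and ranks of 11080 and 7. The start nearest to that region, however, was that of col-17, a collagen gene, at 1242 bp against 2877 bp. In all 5 the rank in replicate 2 was higher than in replicate 1. The same held for the high regions of cdo-1, acly-1, fat-6 and pck-2, and for those of icl-1 and pck-1 in another list. At hach-1 the nearest summits ranked the other way.

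For fatty acid synthesis and desaturation, 0 of 25 other genes had a high pooled region, where 7.46% of protein-coding genes did. Some came close to the limit, and 3 are named after their values were seen. The gene fasn-1, for fatty acid synthase, had a best pooled rank of 1032, with best ranks of 316 in replicate 1 and 3366 in replicate 2. The gene fat-5, for a palmitoyl-CoA desaturase, had best ranks of 1051 in the pool, 6998 in replicate 1 and 536 in replicate 2. The gene pod-2, for acetyl-CoA carboxylase, had best ranks of 1121 in the pool, 1345 in replicate 1 and 3775 in replicate 2. For gluconeogenesis and the glyoxylate cycle, 2 of 21 others had one. The gene icl-1, for the bifunctional glyoxylate cycle enzyme, had a coding exon region 333 bp from its start at pooled rank 333, with rank 3536 in replicate 1 and rank 772 in replicate 2. The gene pck-1, a paralogue of pck-2, had a coding exon region at pooled rank 463, with ranks 3089 and 2306. Its summit was nearer to the start of btb-5 than to that of pck-1.

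**Figure D4:**
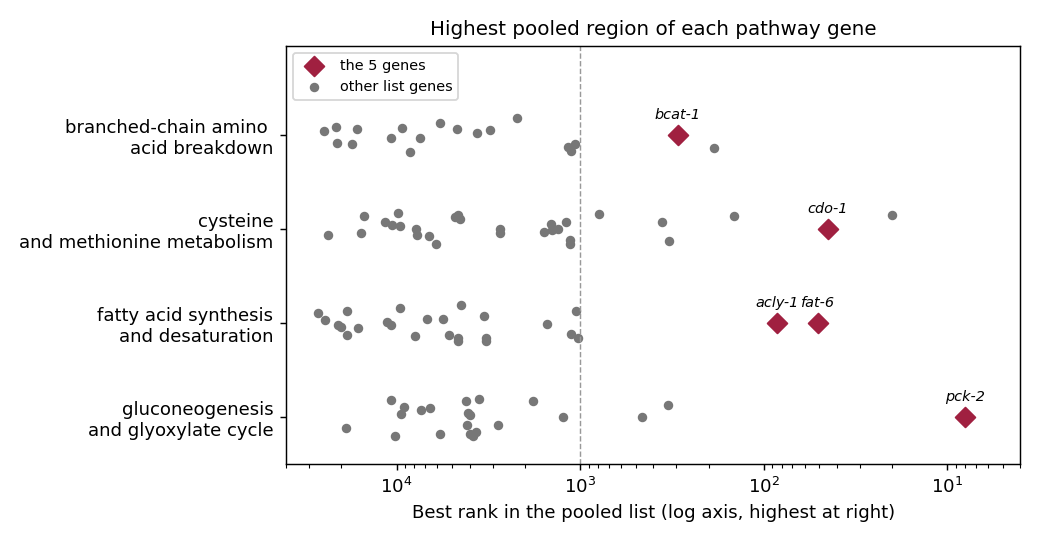
Best rank in the pooled list for each gene of the 4 pathway lists with a pooled region in the gene body or 5000 bp upstream, on a log axis with the highest rank at the right. Diamonds are the 5 genes and grey points the other list genes, spread vertically for legibility. Right of the dashed line at rank 1000 lie the 5 genes and 8 others.

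Each gene was also set beside the protein-coding gene whose best ranks in the 3 lists were most like its own, by the largest difference of log10 rank in any list, over 15379 genes with a region in all lists and leaving out genes that share a region with it. The best ranks of 1 gene can come from different regions. In replicate 1 those of bcat-1, acly-1 and fat-6 were not at the high pooled region. The ranks are over 2 replicates and their pool, so that many genes could come as close. For acly-1 it was R119.3 (difference 0.134), for fat-6 it was F47G6.3 (0.156), and for bcat-1 it was col-46 (0.234). For cdo-1 it was pks-1 (0.281), and for pck-2 it was xol-1 (0.441), with pooled rank 11, rank 108 in replicate 1 and rank 13 in replicate 2.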

How the data were processed

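Region lists were deposited by the authors for each of 2 ELT-3 ChIP-seq replicates, for their pool and for the regions that passed IDR, and per the deposited file listing they were called against 1 control alignment per replicate. The signal value in these lists is the authors' deposited score, whose scale is not stated, and q is deposited as −log10 q. The IDR threshold, aligner and peak caller: not given in the sources used here. Depth is unknown, since the lists hold no read totals. Peaks were called per replicate and on the pool. The ce11 lists were joined to Ensembl release 115 gene models (WBcel235). The ce10 lists were not used.

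Regions were ranked by signal value, and a motif had to lie wholly within 100 bp of a summit. The window, sharing and motif steps were tested on simulated data. The members and pathway lists were chosen with earlier results of these data known. Of 102 listed symbols, mpst-5 and got-1.1 were not in the annotation, and mpst-6 named 2 genes and was counted once. Named genes were the 5, the other list genes with a high pooled region, the genes nearest to or holding those regions, and the genes most alike in ranks. No test was made, and the alternatives were other limits for high, window, sharing and motif distance, ranking by q, and each replicate alone. Python 3.11.15, numpy 2.4.6, pandas 2.3.3 and matplotlib 3.10.9 were used.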

Additional observations from a re-analysis of the deposited data

How the results depend on the processing

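Of 41 alternative values for 6 counts, 31 stayed within 1.5 times. The number of the 5 genes with a high region was 3 with 1000 bp upstream, since bcat-1 and acly-1 then lay outside, and 2 to 5 when 1 replicate's own list replaced the pool. The number of high regions at the 5 genes was 3 to 8 in those lists. With 500 regions per list, 1 gene (pck-2) had a region high in the pool and both replicates, and when sharing with only 1 of the replicates was required the number was 2 to 5. TGATAA lay at the highest summit of 1 to 4 genes in a single replicate's list, fewest in replicate 1's. Within 50 bp the wider form was found at 3 genes. At bcat-1 and pck-2 the nearest site reached beyond that limit, with its far end 54 and 99 bp from the highest summit. For the other pathway genes the number was 24 with 2000 regions and 4 to 17 in a single replicate's list. Counting only regions whose nearest start belonged to the gene, chosen after the data were seen, left 5 genes and 6 other pathway genes. It left 5 of the 6 high regions at the 5 genes, without the higher one of pck-2. The rank of a gene's highest region moved by more than 1 SD between the replicates in 7 of 20 alternative values. Of these, 6 were in a single replicate's list and the other was at bcat-1 (rank 8466 with 2000 bp upstream). That SD came from the same 2 single-replicate ranks, so it is no separate measure of how far they moved. It is also wide where they differ much, as at bcat-1 (ranks 12 and 7302). No paired analysis was possible because there was 1 group and no test. With 2 replicates and unknown depth, a region missing from a list cannot be read as unbound.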

Other observations

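A second word was noticed in the sequences after they were read. The palindrome TGACGTCA lay within 100 bp of 2 of the 6 high pooled summits, those of bcat-1 and cdo-1, against 1.39% of all pooled regions and 1.1% of the 1000 highest. It was absent from the same windows at acly-1, fat-6 and both pck-2 summits. As it was picked from these sequences, no test was made.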
